A study of Homo sapiens with 30 samples.

Results

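The genes followed here are 35 listed genes of the hypoxia response and of glycolysis. They hold the 2 alpha subunits of the hypoxia-inducible factors (HIF), the oxygen sensors that restrain them and targets of HIF. Most enzymes that turn glucose into lactate are also listed, but not the pyruvate kinase PKM. Every probe set annotated with exactly 1 of these symbols was taken, over all 10 groups. This gave 59 of the 22277 probe sets on the array and 34 of the 35 genes, against 11963 named genes in all. CA9, a carbonic anhydrase of the cell surface, was not analysed here. Of the 59 probe sets, 3 are the array's own GAPDH controls, and the other 56 were tested, with 20 genes read by 1 probe set and 14 by several. A probe set is a group of short probes for 1 transcript, and where a gene has several, the one with the highest mean over the 30 arrays stands for it below.

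The cells were a co-culture of Caco-2, a line from a human colorectal carcinoma that differentiates towards absorptive enterocytes, and HT29-MTX, a mucus-producing line from a human colon carcinoma, seeded at 75% and 25% and grown for 14 days on permeable inserts. Multi-walled carbon nanotubes (MWCNT) or titanium dioxide nanobelts (TiO2-NB) were then laid on the apical side at 10 or 100 µg/ml for 1 or 24 h, which gives 8 exposed groups, and 2 control groups had fresh medium in both compartments for 1 or 24 h. Each group has 3 arrays that the labels call biological replicates. Flasks of each line were pooled before seeding, and nothing in the labels says whether the replicates came from separate seedings, so p-values measure the spread between these samples, which may be partly technical.

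HIF is made of an alpha subunit, HIF1A or EPAS1, and a stable partner. When oxygen is present the prolyl hydroxylases EGLN1 and EGLN3 mark the alpha subunit for destruction, so that the factor is controlled mainly at the level of protein and its own transcript can stay level while its targets move. HIF drives glucose uptake, glycolysis, vessel growth and mitophagy, and also transcribes EGLN3 and KDM3A. The intestinal epithelium is known for low oxygen at its luminal face, and cultured carcinoma lines rely strongly on glycolysis.

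All levels are log2 values, so that a difference of 1 is a doubling. A change is called where its adjusted p in limma, corrected over the 22215 tested probe sets, is under 0.05, and ± is the standard error of a log2 change with n = 3 arrays per group. The median level of an array was 6.45 to 6.49, and any 2 arrays correlated at 0.991 or above. Of the markers of enterocytes and of goblet cells, 13 of 13 were measured for each, and their mean level per group lay between 10.30 and 10.40 and between 8.20 and 8.35. The mean of 5 genes of cycling cells lay between 8.85 and 8.97 in the exposed groups at 24 h, against 8.80 in the control. At 1 h it lay between 8.57 and 8.65 in the exposed groups, against 8.68 in the control. At 1 h the probe sets for 18S ribosomal RNA, taken as a sign of RNA quality, stood above the control by 0.68 and 0.93 with MWCNT at 10 and 100 µg/ml, by 0.47 with TiO2-NB at 10 µg/ml (exact permutation p = 0.4) and by 0.43 at 100 µg/ml (exact permutation p = 0.1 for the other 3, the smallest p that 3 arrays against 3 allow). At 24 h these differences were 0.12, 0.065, 0.27 and 0.094, and the part of 18S in the results was not tested beyond the values given with it as a covariate. In such bulk samples fewer cells of a type and less RNA per cell cannot be told apart.

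The first comparison asked what the particles did to these genes within 1 h. Few of them were called, and the glycolytic enzymes other than PFKFB3 and ENO2 were not among those. DDIT4, a stress-induced inhibitor of mTORC1, was higher by 1.01 ± 0.090 in the average of the 4 exposed groups, 2.02-fold (adjusted p = 5.22e-08). KDM3A, EGLN1, EGLN3 and SLC2A3 fell by 0.57, 0.44, 0.42 and 0.37, and their roles are given below. In that average 10 of 56 member probe sets were called, 2 up and 8 down, which is 17.9% against 12.4% of all tested probe sets. The 2 shares were not tested against each other, and the members' count was lower without control replicate 2, as given below. Only 1 of the 56 member probe sets was among the dimmest probe sets by mean level, so members and all probe sets were not matched in level. The members were also chosen with earlier results of these data known. These limits hold for every share of member probe sets set against all probe sets below. In the average there were more falls than rises among the members and among all probe sets. Of all probe sets 4.78% were called up there and 7.6% down. By genes, 2 of 34 rose, 7 fell and 25 did not pass, and the median change of the 34 genes was -0.067 against -0.0073 over the 11963 genes.

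By group, 6 of 56 member probe sets were called with MWCNT at 10 µg/ml, 1 up and 5 down, where 6.46% of all probe sets were called, 2.56% up and 3.9% down. With MWCNT at 100 µg/ml there were again 6, 1 up and 5 down, where 7.78% of all were called, 3.51% up and 4.27% down. Falls outnumbered rises in each of these groups, among the members and among all probe sets. With TiO2-NB at 10 µg/ml there were 10, 2 up and 8 down, where 7.84% were called, 2.61% up and 5.24% down. With TiO2-NB at 100 µg/ml there were 8, 2 up and 6 down, where 8.43% were called, 2.65% up and 5.78% down. The 4 comparisons share the same 3 control arrays, so a value of the control enters all of them. Leaving out control replicate 2 brought the count in the average to 4, the probe sets of DDIT4, KDM3A and EGLN1 and 1 of SLC2A3. With the spread taken from the compared groups alone, the counts by group were 2, 2, 3 and 2 in the order given. The calls left were those of DDIT4 and KDM3A in each group and of EGLN1 with TiO2-NB at 10 µg/ml. The other group calls at 1 h described below ended there (adjusted p between 0.0547 and 0.294), as did the average calls of ADM and ENO2 (adjusted p = 0.068 and 0.11). With 18S as a covariate, chosen after seeing the data, the group calls ended for EGLN1 with MWCNT, EGLN3 in its 3 called groups, PFKFB3 with MWCNT at 100 µg/ml, ADM and ENO2 with TiO2-NB at 10 µg/ml and NDRG1 with TiO2-NB at 100 µg/ml (adjusted p between 0.059 and 0.383).

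Few markers of cell types were called in the same 1 h average, where 12.4% of all probe sets were called. Of 5 genes of cycling cells 1 was called in the average, AURKA, a mitotic kinase, which fell by 0.21 ± 0.038 (adjusted p = 0.000573) and by 0.16 to 0.25 in the 4 groups. MKI67, another of the 5, went the other way, with an average of 0.18 ± 0.076 that did not pass. With MWCNT at 100 µg/ml MKI67 rose by 0.32 ± 0.097 (adjusted p = 0.0449). Of 13 enterocyte markers 1 was called in the average, APOB, which rose by 0.22 ± 0.071 (adjusted p = 0.0414), and of 13 goblet cell markers 1, MUC13, which rose by 0.21 ± 0.038 (adjusted p = 0.000605). The part of these markers in the members' changes was not tested.

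**Figure D1:**
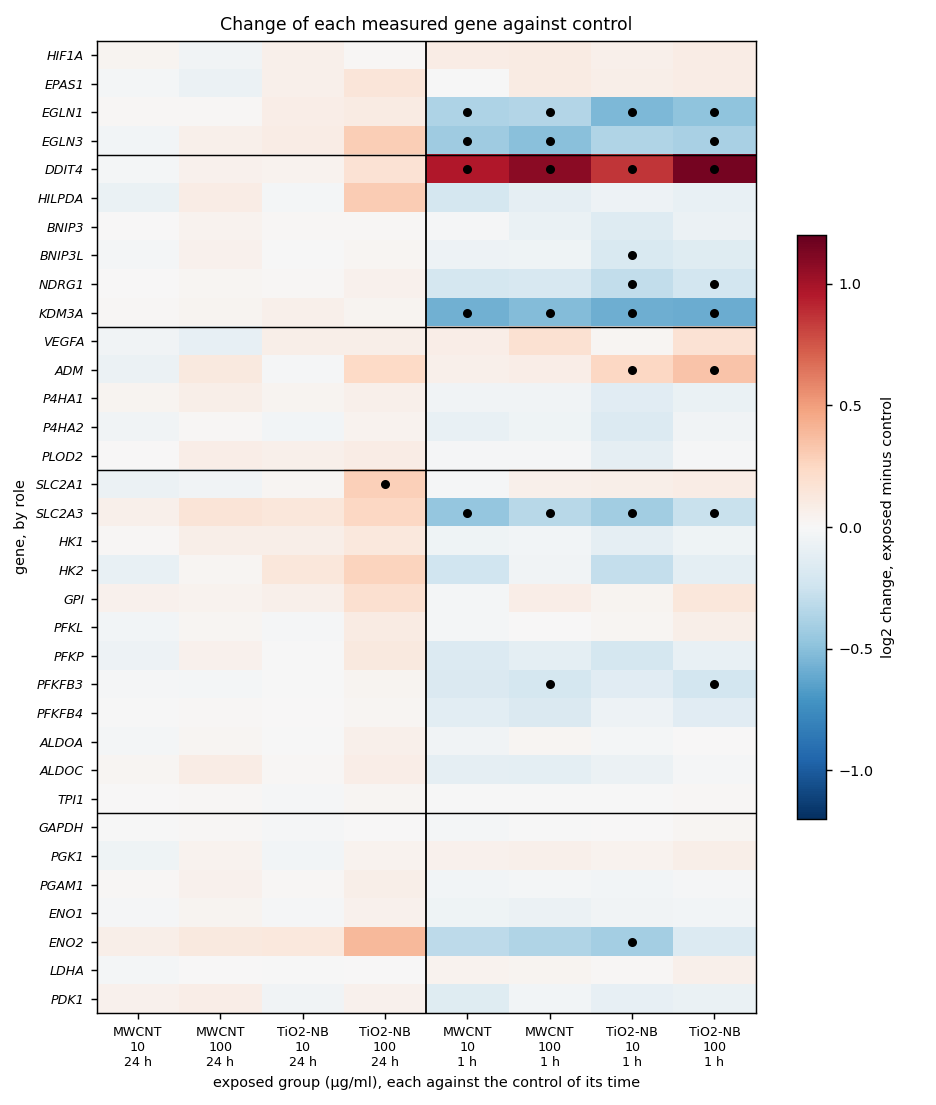
Log2 change of the 34 measured genes (rows, grouped by role) in the 4 exposed groups of 24 h and the 4 of 1 h (columns), each against the control of its time, with red for higher and blue for lower in the exposed group and a dot where the change was called. The 1 h columns hold most of the dots, with DDIT4 as the red row and KDM3A, EGLN1, EGLN3 and SLC2A3 as blue rows, and the 24 h columns hold 1 dot, SLC2A1 with TiO2-NB at 100 µg/ml.

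The alpha subunits of HIF showed no called change at 1 h. HIF1A, the subunit most cells use, had group means between 10.65 and 10.69 in the exposed groups and 10.59 in the control, and its average change was 0.09 ± 0.031 (adjusted p = 0.0813). EPAS1, the second alpha subunit, was at 0.07 ± 0.044 in the average. Transcript levels do not report the amount of either protein.

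The sensors of oxygen were lower. EGLN1, the main HIF prolyl hydroxylase, had levels of 7.95, 8.17 and 8.08 with MWCNT at 10 µg/ml, 8.12, 8.05 and 8.10 with MWCNT at 100 µg/ml, 7.95, 7.79 and 7.96 with TiO2-NB at 10 µg/ml and 8.16, 7.80 and 7.91 with TiO2-NB at 100 µg/ml, against 8.42, 8.53 and 8.37 in the control. All 12 exposed arrays lay below all 3 control arrays. By group at 1 h, 21.3% to 23.7% of all probe sets did not overlap the control, and 19.6% to 32.1% of the member probe sets. These shares are for 3 exposed arrays against 3, and the share for all 12 together was not computed. EGLN1 fell by 0.37 ± 0.075 and 0.35 ± 0.075 with MWCNT at 10 and 100 µg/ml and by 0.54 ± 0.075 and 0.48 ± 0.075 with TiO2-NB, and each was called. With 18S as a covariate the MWCNT calls ended (-0.24, adjusted p = 0.080 at 10 µg/ml and -0.17, adjusted p = 0.383 at 100 µg/ml). EGLN1 is read by 1 probe set of the kind whose name marks probes that may also match other transcripts.

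EGLN3, the hydroxylase that HIF itself induces, was less even. Its levels were 5.14, 5.12 and 5.16 with MWCNT at 10 µg/ml, 4.99, 5.08 and 5.13 with MWCNT at 100 µg/ml, 5.40, 5.17 and 5.04 with TiO2-NB at 10 µg/ml and 5.29, 5.14 and 5.11 with TiO2-NB at 100 µg/ml, against 5.32, 5.91 and 5.47 in the control. The control arrays spread widely, and the highest exposed array, with TiO2-NB at 10 µg/ml, lay above the lowest control. EGLN3 fell by 0.42 ± 0.12 and 0.50 ± 0.12 with MWCNT at 10 and 100 µg/ml and by 0.39 ± 0.12 with TiO2-NB at 100 µg/ml, and with TiO2-NB at 10 µg/ml its change of -0.36 ± 0.12 did not pass. Without control replicate 2, the highest array, the average change was -0.25 and no longer called (adjusted p = 0.11).

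Among the targets of stress, mitophagy and lipid storage, DDIT4 and KDM3A moved in opposite directions. DDIT4 had levels of 10.37, 10.42 and 10.43 with MWCNT at 10 µg/ml, 10.89, 10.19 and 10.50 with MWCNT at 100 µg/ml, 10.41, 10.36 and 10.14 with TiO2-NB at 10 µg/ml and 10.79, 10.63 and 10.37 with TiO2-NB at 100 µg/ml, against 9.35, 9.61 and 9.37 in the control. The lowest exposed array stood well above the highest control. The rises were 0.96 ± 0.11 and 1.08 ± 0.11 with MWCNT at 10 and 100 µg/ml and 0.86 ± 0.11 and 1.15 ± 0.11 with TiO2-NB at the same doses, each called.

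KDM3A, a histone demethylase that needs oxygen and is itself a HIF target, had levels of 9.29, 9.29 and 9.31 with MWCNT at 10 µg/ml, 9.38, 9.32 and 9.34 with MWCNT at 100 µg/ml, 9.29, 9.33 and 9.22 with TiO2-NB at 10 µg/ml and 9.27, 9.24 and 9.30 with TiO2-NB at 100 µg/ml, against 9.77, 9.97 and 9.87 in the control. The exposed arrays were tight and all lay below the control. The falls were 0.57 ± 0.050 and 0.52 ± 0.050 with MWCNT and 0.59 ± 0.050 and 0.60 ± 0.050 with TiO2-NB at 10 and 100 µg/ml, or 1.44-fold to 1.51-fold (adjusted p between 5.23e-08 and 4.98e-07). With 18S as a covariate the average was -0.60 for KDM3A and 1.07 for DDIT4, both still called.

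NDRG1, a differentiation and stress gene long used as a hypoxia marker, had levels of 12.58, 12.61 and 12.57 with MWCNT at 10 µg/ml, 12.68, 12.45 and 12.69 with MWCNT at 100 µg/ml, 12.50, 12.63 and 12.36 with TiO2-NB at 10 µg/ml and 12.66, 12.53 and 12.54 with TiO2-NB at 100 µg/ml, against 12.81, 12.89 and 12.69 in the control. It fell in the average by 0.23 ± 0.055 (adjusted p = 0.00655), and by group with TiO2-NB only, by 0.30 ± 0.069 at 10 and 0.22 ± 0.069 at 100 µg/ml. The difference between the particles was not called at either dose. Without control replicate 2 the average was -0.18 (adjusted p = 0.087). BNIP3L, a receptor that hands mitochondria to autophagy, fell by 0.18 ± 0.056 with TiO2-NB at 10 µg/ml (adjusted p = 0.047), and its other probe set was at -0.20 ± 0.087 and did not pass. BNIP3, its close relative, and HILPDA, a protein of lipid droplets, did not pass in any 1 h group, with HILPDA between -0.21 and -0.06.

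**Figure D2:**
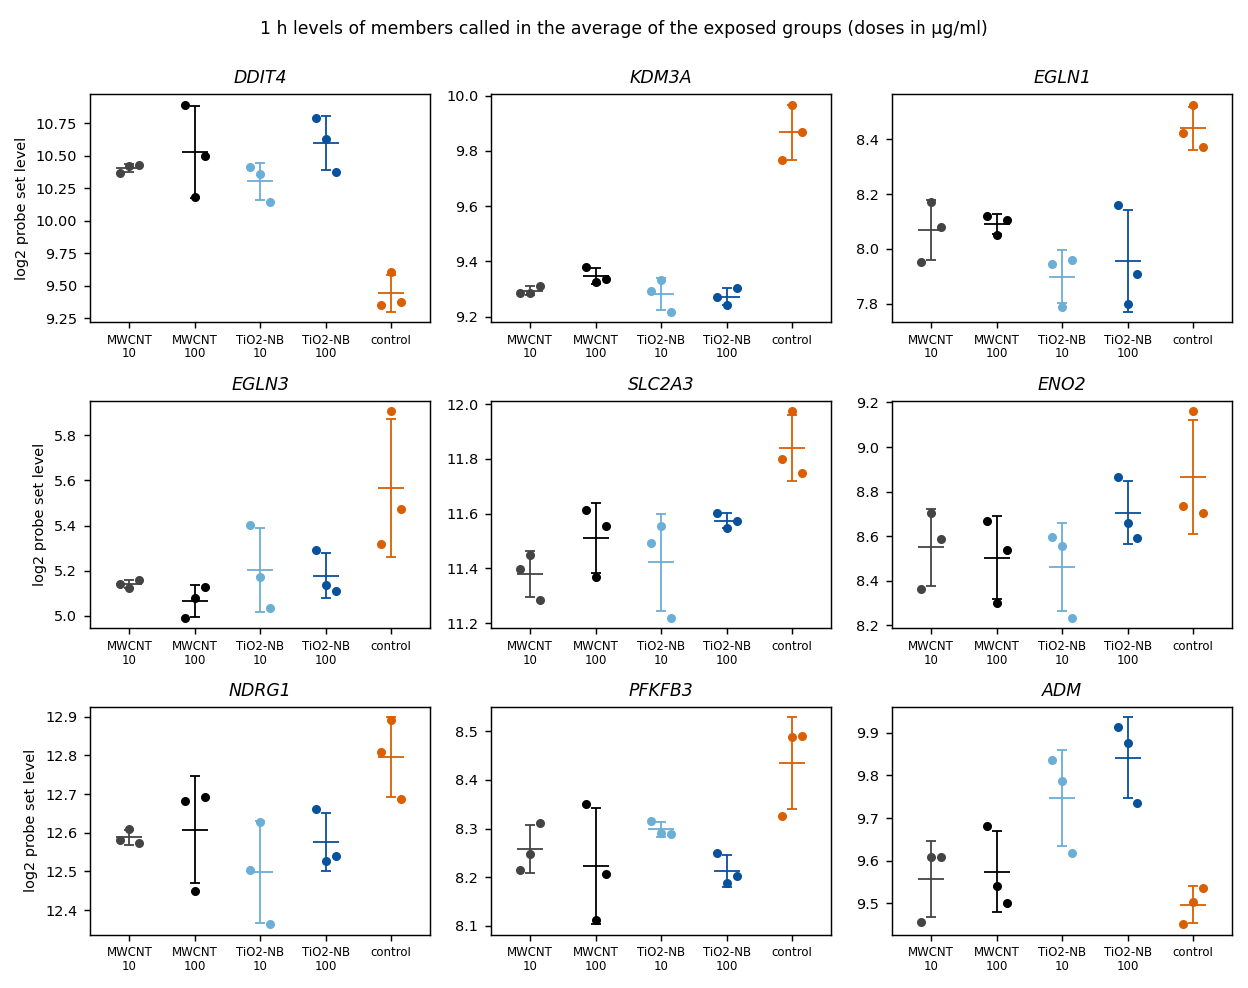
Log2 levels at 1 h of the 9 genes called in the average of the 4 exposed groups, 1 point per array, with the mean as a bar and the SD of 3 arrays as whiskers, for MWCNT and TiO2-NB at 10 and 100 µg/ml and then the control (x axis). In DDIT4, KDM3A, EGLN1 and SLC2A3 no exposed array overlaps the control, while in ENO2, NDRG1, EGLN3, PFKFB3 and ADM some do. By group, 21.3% to 23.7% of all probe sets do not overlap the control, and 19.6% to 32.1% of the member probe sets. The share for the 4 exposed groups together was not computed.

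The promoters of the called genes are shown because DDIT4 and KDM3A, both known HIF targets, moved in opposite directions, and LDHA, a glycolytic HIF target chosen after its values were seen, did not move. Each window holds 300 bases around a RefSeq gene start (GRCh38.p14), most of them before the start, and is read on the gene's strand. Capitals mark the core of the HIF binding motif, ACGTG or GCGTG, on either strand. The windows are chr10:72273674-72273973 (plus strand) for DDIT4, chr2:86441121-86441420 (plus strand) for KDM3A, chr1:231422238-231422537 (minus strand) for EGLN1 and chr11:18394313-18394612 (plus strand) for LDHA.
DDIT4: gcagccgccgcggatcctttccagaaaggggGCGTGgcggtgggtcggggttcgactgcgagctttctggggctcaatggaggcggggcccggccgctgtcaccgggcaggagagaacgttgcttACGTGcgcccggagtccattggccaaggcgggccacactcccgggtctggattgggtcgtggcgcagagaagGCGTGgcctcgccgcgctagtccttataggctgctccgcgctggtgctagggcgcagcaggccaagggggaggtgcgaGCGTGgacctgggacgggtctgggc
KDM3A: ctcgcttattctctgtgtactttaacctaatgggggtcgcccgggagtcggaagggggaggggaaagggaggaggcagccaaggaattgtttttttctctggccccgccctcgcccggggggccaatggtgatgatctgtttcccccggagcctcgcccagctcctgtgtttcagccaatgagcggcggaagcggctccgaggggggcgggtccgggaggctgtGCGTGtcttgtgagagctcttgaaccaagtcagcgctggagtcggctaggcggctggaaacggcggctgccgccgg
EGLN1: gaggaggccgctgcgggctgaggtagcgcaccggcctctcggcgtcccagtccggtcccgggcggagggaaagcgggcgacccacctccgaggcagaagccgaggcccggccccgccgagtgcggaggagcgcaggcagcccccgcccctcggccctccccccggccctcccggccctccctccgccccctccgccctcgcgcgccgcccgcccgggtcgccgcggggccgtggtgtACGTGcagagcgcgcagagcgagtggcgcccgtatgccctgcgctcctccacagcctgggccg
LDHA: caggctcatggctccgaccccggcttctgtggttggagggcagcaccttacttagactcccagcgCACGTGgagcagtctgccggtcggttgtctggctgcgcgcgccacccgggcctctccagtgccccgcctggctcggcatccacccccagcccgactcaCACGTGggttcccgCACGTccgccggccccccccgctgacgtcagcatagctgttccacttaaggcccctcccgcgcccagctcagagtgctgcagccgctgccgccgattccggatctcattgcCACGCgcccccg
The table has 2 windows each for KDM3A and LDHA, and the one listed first is shown. The windows shown hold 4 matches for DDIT4, 1 for KDM3A, 1 for EGLN1 and 6 for LDHA, and the other windows of KDM3A and LDHA hold 1 each. LDHA does not stand for the members not called at 1 h. Among these, BNIP3 and HK2 also have a window with 6 matches, and the windows of PGAM1 and P4HA2 hold 0. In the LDHA window shown, 2 stretches are the E-box CACGTG, which reads the same on both strands and counts as 2 overlapping matches each. Of all 35116 windows in the table, 48.4% hold ACGTG or GCGTG, 21.4% hold ACGTG, 36.5% hold GCGTG and 7.26% hold CACGTG. Of the 47 member windows, 34 hold ACGTG or GCGTG (72.3%). By gene, 52.4% of 27305 genes have a match in some window, and a match was found for 26 of the 29 member genes with a window (89.7%). The members were listed partly as targets of HIF, so these shares are no test of the list. A match describes the letters of the window and not the binding of a factor.

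Of the secreted factors and the enzymes of pH and collagen, only ADM was called at 1 h in the probe sets that stand for the 5 measured genes. ADM, which encodes the vasoactive peptide adrenomedullin, had levels of 9.46, 9.61 and 9.61 with MWCNT at 10 µg/ml, 9.68, 9.54 and 9.50 with MWCNT at 100 µg/ml, 9.84, 9.79 and 9.62 with TiO2-NB at 10 µg/ml and 9.91, 9.88 and 9.73 with TiO2-NB at 100 µg/ml, against 9.45, 9.50 and 9.54 in the control. Both TiO2-NB groups lay above all controls and both MWCNT groups overlapped them. ADM rose by 0.25 ± 0.071 and 0.34 ± 0.071 with TiO2-NB at 10 and 100 µg/ml, and its changes of 0.06 and 0.08 with MWCNT did not pass. Its average of 0.18 ± 0.056 was called (adjusted p = 0.033), and that call ended without control replicate 1, 2 or 3 (adjusted p = 0.14, 0.10 and 0.068) and with 18S as a covariate (0.17, adjusted p = 0.18). MWCNT against TiO2-NB gave no called member probe set at 10 µg/ml, where 0.0675% of all were called, nor at 100 µg/ml, where 0% were. At an unadjusted p under 0.05, 4 and 1 member probe sets of 56 passed in those 2 comparisons, and 3041 and 2055 of all.

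VEGFA, the main growth factor of blood vessels, did not pass at 1 h with any of its 4 probe sets, and the one that stands for it was at 0.11 ± 0.054 in the average. P4HA1 and P4HA2, which hydroxylate collagen prolines, did not pass either, with averages of -0.07 and -0.09. PLOD2, which hydroxylates collagen lysines, fell by 0.33 ± 0.10 with TiO2-NB at 10 µg/ml in 1 probe set (adjusted p = 0.043), while the probe set that stands for it was at -0.11. Without control replicate 2 that change was -0.25 (adjusted p = 0.214).

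Glucose entry and upper glycolysis showed 2 called genes of 12. SLC2A3, a glucose transporter of high affinity, had levels of 11.40, 11.45 and 11.29 with MWCNT at 10 µg/ml, 11.61, 11.37 and 11.55 with MWCNT at 100 µg/ml, 11.49, 11.55 and 11.22 with TiO2-NB at 10 µg/ml and 11.60, 11.55 and 11.57 with TiO2-NB at 100 µg/ml, against 11.80, 11.97 and 11.75 in the control. No exposed array reached the control. SLC2A3 fell by 0.46 ± 0.077 and 0.33 ± 0.077 with MWCNT at 10 and 100 µg/ml and by 0.42 ± 0.077 and 0.27 ± 0.077 with TiO2-NB. Its other 2 probe sets averaged -0.32 ± 0.090, which was called, and -0.20 ± 0.076, which was not (adjusted p = 0.0858). At 100 µg/ml the calls ended without control replicate 2, for MWCNT (-0.26, adjusted p = 0.061) and for TiO2-NB (-0.20, adjusted p = 0.168), and also without MWCNT replicate 2 (adjusted p = 0.065) or any 1 of the TiO2-NB arrays. The average stayed called at -0.30 without that control array.

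PFKFB3, which makes the allosteric activator of phosphofructokinase, had levels of 8.21, 8.25 and 8.31 with MWCNT at 10 µg/ml, 8.35, 8.11 and 8.21 with MWCNT at 100 µg/ml, 8.32, 8.29 and 8.29 with TiO2-NB at 10 µg/ml and 8.25, 8.19 and 8.20 with TiO2-NB at 100 µg/ml, against 8.33, 8.49 and 8.49 in the control. It fell in the average by 0.19 ± 0.043, and by group by 0.21 ± 0.054 with MWCNT and 0.22 ± 0.054 with TiO2-NB at 100 µg/ml. The average call ended without control replicate 2 or 3 of 1 h (-0.16 each, adjusted p = 0.055 and 0.054) and with 18S as a covariate (-0.15, adjusted p = 0.10). The other genes of this step were near the control. SLC2A1, the widely expressed glucose transporter, was at 0.05 ± 0.045 in the average. The hexokinases HK1 and HK2, GPI, the phosphofructokinases PFKL and PFKP, PFKFB4, the aldolases ALDOA and ALDOC and TPI1 did not pass in any 1 h group, and their averages lay between -0.17 for HK2 and 0.05 for GPI over the probe sets that stand for them.

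Of the listed genes of lower glycolysis only ENO2 was called at 1 h. ENO2, the enolase first known from neurons, had levels of 8.36, 8.70 and 8.59 with MWCNT at 10 µg/ml, 8.67, 8.30 and 8.54 with MWCNT at 100 µg/ml, 8.60, 8.56 and 8.23 with TiO2-NB at 10 µg/ml and 8.86, 8.66 and 8.59 with TiO2-NB at 100 µg/ml, against 8.73, 9.16 and 8.70 in the control. Control replicate 2 stood apart from the other arrays. ENO2 fell in the average by 0.31 ± 0.091 (adjusted p = 0.0251) and with TiO2-NB at 10 µg/ml by 0.41 ± 0.12, and without that control array the average was -0.16 (adjusted p = 0.34). GAPDH, PGK1, PGAM1, ENO1, LDHA, which makes lactate, and PDK1, which closes pyruvate off from the mitochondria, did not pass in any 1 h group. Their averages lay between -0.09 for PDK1 and 0.06 for PGK1. LDHA had levels of 13.81 to 13.91 over the 12 exposed arrays and 13.81, 13.85 and 13.80 in the control, so the ranges overlapped in part.

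Lists of neighbouring genes were read in the same average of the 4 exposed groups at 1 h, where 12.4% of all probe sets were called. Of 32 measured other HIF targets, 4 rose, 10 fell and 18 did not pass, with a median of -0.10 against -0.0073 over all genes. BHLHE40, a basic helix-loop-helix repressor that HIF induces, rose by 1.05 ± 0.086, as did NFIL3, a bZIP factor (0.32 ± 0.048), and CITED2, which competes with HIF for its coactivators (0.38 ± 0.068). MXI1, an antagonist of MYC, fell by 0.79 ± 0.066, ZNF395 by 0.42 ± 0.045, KDM4C, a histone demethylase, by 0.37 ± 0.042 and STC2, a secreted glycoprotein, by 0.44 ± 0.079. HIF targets thus moved in both directions. Of 14 genes of the HIF machinery 2 rose, 1 fell and 11 did not pass, with rises of CITED2 and of the coactivator CREBBP (0.30 ± 0.081) and a fall of HIF1AN, the asparaginyl hydroxylase that blocks HIF activity (-0.12 ± 0.039).

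Among 17 other genes of glycolysis and glucose entry, 1 rose, 1 fell and 15 did not pass, a share near that of all probe sets. TIGAR, a phosphatase that slows glycolysis, rose by 0.59 ± 0.053, and the muscle phosphofructokinase PFKM fell by 0.12 ± 0.034. PKM did not pass in the average (0.17 ± 0.064, adjusted p = 0.0798). With MWCNT at 100 µg/ml PKM rose by 0.28 ± 0.081 (adjusted p = 0.0361). Of 13 genes of gluconeogenesis and glycogen 1 rose, 3 fell and 9 did not pass. PCK1, which commits carbon to gluconeogenesis, fell by 1.02 ± 0.11, UGP2 by 0.13 ± 0.038 and the glycogen phosphorylase PYGL by 0.12 ± 0.038, and G6PC1, which releases free glucose, rose by 0.31 ± 0.089. Of 11 genes of pyruvate dehydrogenase and its regulators 0 were called. Of 7 genes of mTORC1, the kinase complex that DDIT4 inhibits, 2 fell, the inhibitors DEPTOR (-0.22 ± 0.034) and TSC1 (-0.20 ± 0.044), and 5 did not pass.

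The next comparison asked what was left after 24 h. For most of these genes no difference from the control was called. With MWCNT at 10 and 100 µg/ml and TiO2-NB at 10 µg/ml, 0 of 56 member probe sets were called in limma, where 0.0045%, 0.009% and 0.0585% of all were called. At an unadjusted p under 0.05 there were 0, 0 and 1 member probe sets of 56, and 952, 1236 and 1686 of all 22215. In the average of the 4 exposed groups 0 members were called, where 0.324% of all were, and 3 members and 1748 of all passed an unadjusted p under 0.05. The genes with the largest changes at 1 h were among those not called. DDIT4 had levels of 10.90, 11.01 and 10.97 with MWCNT at 10 µg/ml, 11.01, 11.07 and 11.01 with MWCNT at 100 µg/ml, 11.02, 11.01 and 11.05 with TiO2-NB at 10 µg/ml and 11.12, 11.19 and 11.14 with TiO2-NB at 100 µg/ml, against 11.04, 10.97 and 10.94 in the control. Its average change was 0.06 ± 0.090. KDM3A ran from 10.42 to 10.60 over the 12 exposed arrays, against 10.52, 10.49 and 10.45 in the control, an average change of 0.03 ± 0.039. The exposed and control arrays of both genes were close together at 24 h, and neither passed in any group.

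TiO2-NB at 100 µg/ml was the exception at 24 h. There 4 of 56 member probe sets were called, 2 up and 2 down, where 3.53% of all were called. SLC2A1, which carries glucose into most cells, rose in both of its probe sets. The first had levels of 10.63, 10.63 and 10.62 with TiO2-NB at 100 µg/ml, against 10.40, 10.30 and 10.33 in the control, and in the other 3 exposed groups it lay between 10.24 and 10.40. The second had 7.02, 7.11 and 7.19 with TiO2-NB at 100 µg/ml, against 6.89, 6.71 and 6.78 in the control. In this group 22.5% of all probe sets and 42.9% of the 56 member probe sets did not overlap the control. In both probe sets of SLC2A1 the 3 exposed arrays stood above all controls. The rises were 0.28 ± 0.057 (adjusted p = 0.00264) and 0.31 ± 0.071 (adjusted p = 0.00834). The call in the second ended with the compared groups alone (adjusted p = 0.079) and without TiO2-NB replicate 3 (0.27, with an adjusted p of 0.086) or without the second control array (0.27, with an adjusted p of 0.0721).

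BNIP3L and PLOD2 gave split readings in the same group. In the probe set that stands for BNIP3L the levels were 11.85, 11.89 and 11.87 with TiO2-NB at 100 µg/ml, against 11.89, 11.86 and 11.79 in the control. In the other they were 10.98, 10.85 and 10.69, against 11.50, 11.53 and 11.40 in the control, a fall of 0.64 ± 0.087 (adjusted p = 2.13e-05). The first probe set overlapped the control and the second lay below it on every array. For PLOD2 the probe set that stands for the gene had 12.14, 12.20 and 12.25 with TiO2-NB at 100 µg/ml, against 12.13, 12.12 and 12.08 in the control, a change of 0.09 that did not pass. The other had 11.03, 10.98 and 10.89, against 11.47, 11.37 and 11.41 in the control, and fell by 0.45 ± 0.10 (adjusted p = 0.00613), a call that ended without TiO2-NB replicate 3 (-0.42, adjusted p = 0.054). Which transcripts each probe set reads was not tested.

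**Figure D3:**
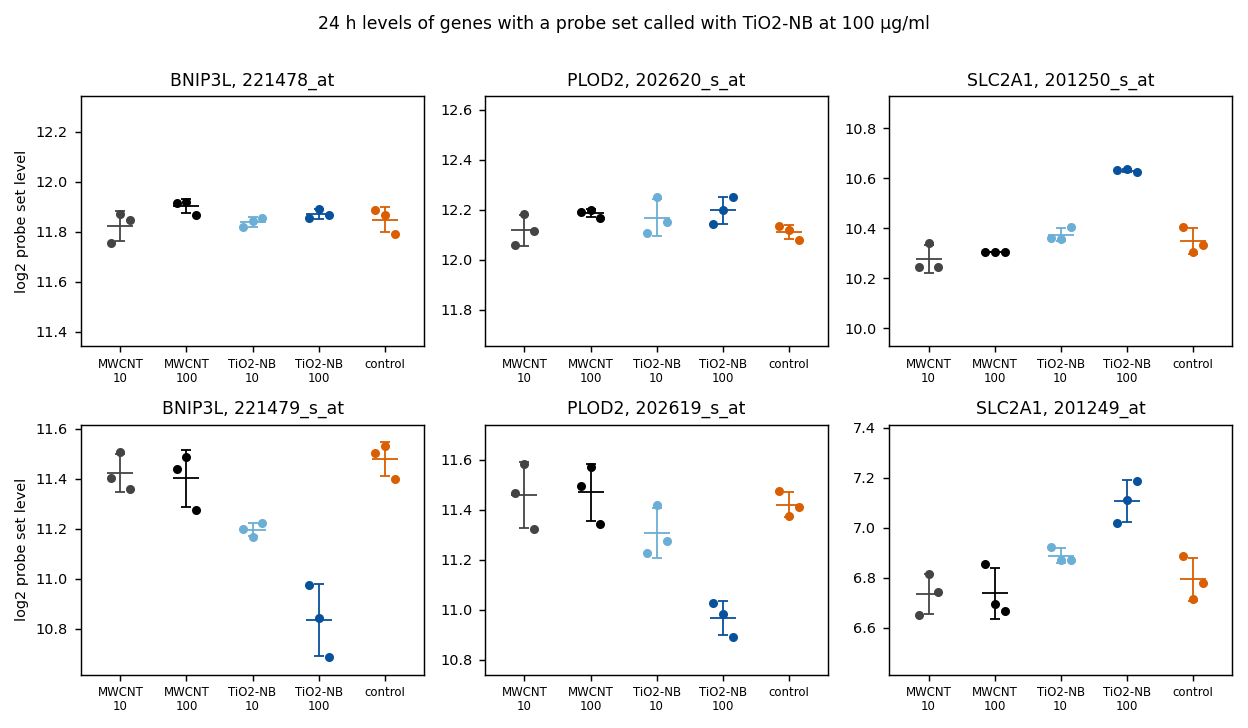
Log2 levels at 24 h of both probe sets of BNIP3L, PLOD2 and SLC2A1, 1 point per array with the mean and the SD of 3 arrays, for MWCNT and TiO2-NB at 10 and 100 µg/ml and then the control (x axis); every panel spans 1 log2 unit. For BNIP3L and PLOD2 only the lower panel shows TiO2-NB at 100 µg/ml below the control (-0.64 and -0.45), and for SLC2A1 both panels show it above (0.28 and 0.31).

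Dose and particle were compared directly. For 100 against 10 µg/ml at 1 h, 0 member probe sets were called with MWCNT and 0 with TiO2-NB, where 0% of all were called in each, and 0 and 3 members passed an unadjusted p under 0.05, as did 1518 and 1427 of all. At 24 h 0 members were called with MWCNT, where again 0% of all were, with 3 members and 1478 of all at an unadjusted p under 0.05. With TiO2-NB at 24 h 2 of 56 were called, where 1.83% of all were. SLC2A1 was higher at 100 than at 10 µg/ml by 0.26 ± 0.057 (adjusted p = 0.0129), and the second probe set of BNIP3L was lower by 0.36 ± 0.087 (adjusted p = 0.0244). Both calls ended with the compared groups alone (adjusted p = 0.30 and 0.31) and without replicate 1 or 2 of 10 µg/ml or replicate 2 or 3 of 100 µg/ml.

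MWCNT against TiO2-NB at 24 h gave 0 called members at 10 µg/ml, where 0.0315% of all were called, with 2 members and 1083 of all at an unadjusted p under 0.05. At 100 µg/ml 5 of 56 were called, where 2.88% of all were. EPAS1 was lower with MWCNT than with TiO2-NB by 0.22 ± 0.056 (adjusted p = 0.0307), with levels of 10.64, 10.58 and 10.58 with MWCNT against 10.79, 10.82 and 10.84 with TiO2-NB. Both SLC2A1 probe sets were lower with MWCNT, by 0.33 ± 0.057 and 0.37 ± 0.071. For BNIP3L and PLOD2 the reading depended on the probe set here too. The second probe sets of BNIP3L and PLOD2 were higher, by 0.57 ± 0.087 and 0.50 ± 0.10. These use the same 3 TiO2-NB arrays as the comparison against the control. With the compared groups alone 0 of the 5 were called (adjusted p between 0.073 and 0.114), and the EPAS1 call also ended without any 1 of 5 of the 6 arrays.

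The control cultures show how these genes differed between the times without particles. At 24 h against 1 h in the control, 7 of 56 member probe sets were called and all 7 rose, where 18.1% of all were called and 7.22% were called up. HILPDA, which coats and protects lipid droplets, had levels of 10.87, 10.69 and 10.77 at 24 h, against 8.59, 8.91 and 8.62 at 1 h, and rose by 2.07 ± 0.099 or 4.20-fold (adjusted p = 2.89e-13). DDIT4 had 11.04, 10.97 and 10.94 at 24 h, against 9.35, 9.61 and 9.37 at 1 h, and rose by 1.54 ± 0.11 or 2.90-fold. ADM had 10.47, 10.37 and 10.33 at 24 h, against 9.45, 9.50 and 9.54 at 1 h, a rise of 0.89 ± 0.071. In these 3 genes no array of 24 h overlapped those of 1 h. The same held for 15 of the 56 member probe sets (26.8%) and for 34.2% of all.

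Smaller rises in the control were those of PFKFB3, KDM3A, SLC2A3 and VEGFA. PFKFB3 had 9.10, 9.12 and 8.96 at 24 h, against 8.33, 8.49 and 8.49 at 1 h, a rise of 0.63 ± 0.054. KDM3A had 10.52, 10.49 and 10.45 at 24 h, against 9.77, 9.97 and 9.87 at 1 h, a rise of 0.62 ± 0.050. Both were 1.54-fold. The remaining rises were small. SLC2A3 had 12.16, 12.05 and 12.17 at 24 h, against 11.80, 11.97 and 11.75 at 1 h, a rise of 0.29 ± 0.077 (adjusted p = 0.0101) that was not called without 1 h replicate 3 (0.24, adjusted p = 0.062). VEGFA had 10.61, 10.58 and 10.51 at 24 h, against 10.33, 10.35 and 10.36 at 1 h, a rise of 0.22 ± 0.069 (adjusted p = 0.0258). The other 3 VEGFA probe sets did not pass, with changes between 0.04 and 0.08, and the VEGFA call ended without any 1 of the 1 h arrays or without replicate 1 or 2 of 24 h (adjusted p between 0.053 and 0.096). In the control the alpha subunits of HIF were not called over time. HIF1A and EPAS1 were at -0.01 and -0.07, and of the enzymes from HK1 to LDHA only PFKFB3 passed.

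In the exposed cultures more member probe sets were called between the times, and the interactions further on test the difference. With MWCNT at 10 µg/ml 17 of 56 member probe sets were called, 16 of them up, where 21.2% of all were called and 10.5% up. With MWCNT at 100 µg/ml there were 20, 18 of them up, where 25.4% were called and 11.7% up. HIF1A was among those that fell there (-0.15 ± 0.040, adjusted p = 0.00545). With TiO2-NB at 10 µg/ml there were 19, all up, where 27.3% were called and 13.6% up, and at 100 µg/ml 23, 21 of them up, where 27% were called and 13.8% up. The count for MWCNT at 10 µg/ml was 9 without its 24 h replicate 2. The median change over the 34 genes was 0.16, 0.18, 0.17 and 0.20 in these 4 groups and 0.059 in the control, against 0.018, 0.030, -0.014, 0.013 and 0.0056 over all genes. HILPDA rose by 2.20, 2.27, 2.12 and 2.46, and KDM3A by 1.21, 1.17, 1.26 and 1.25, in MWCNT at 10 and 100 µg/ml and TiO2-NB at 10 and 100 µg/ml. EGLN1 rose by 0.34, 0.32, 0.58 and 0.54 in the same order of groups, EGLN3 by 0.43, 0.59, 0.49 and 0.71, and NDRG1 by 0.31, 0.31, 0.41 and 0.37. These 3 genes did not pass in the control, where they were at -0.04, 0.03 and 0.10. The interaction given further on was called for EGLN1 with TiO2-NB only, for EGLN3 with TiO2-NB at 100 µg/ml only and for NDRG1 in no group. Some of these calls rest on the setting or on 1 array. The EGLN1 call with MWCNT at 100 µg/ml ended with 18S as a covariate (adjusted p = 0.187), and the EGLN3 call with MWCNT at 10 µg/ml without 24 h replicate 2. Among glycolysis genes ENO2 rose by 0.32 with MWCNT at 100 µg/ml and by 0.37 and 0.39 with TiO2-NB. HK1 rose by 0.19 in both TiO2-NB groups, and GPI by 0.21 with MWCNT at 10 µg/ml and 0.20 with TiO2-NB at 100 µg/ml. PDK1 rose by 0.29 and 0.22 in those 2 groups. ALDOC rose by 0.25 with MWCNT at 100 µg/ml, and 1 probe set of TPI1 fell by 0.22 with MWCNT at 10 µg/ml. GAPDH, PGAM1, ENO1 and LDHA did not pass in any condition.

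**Figure D4:**
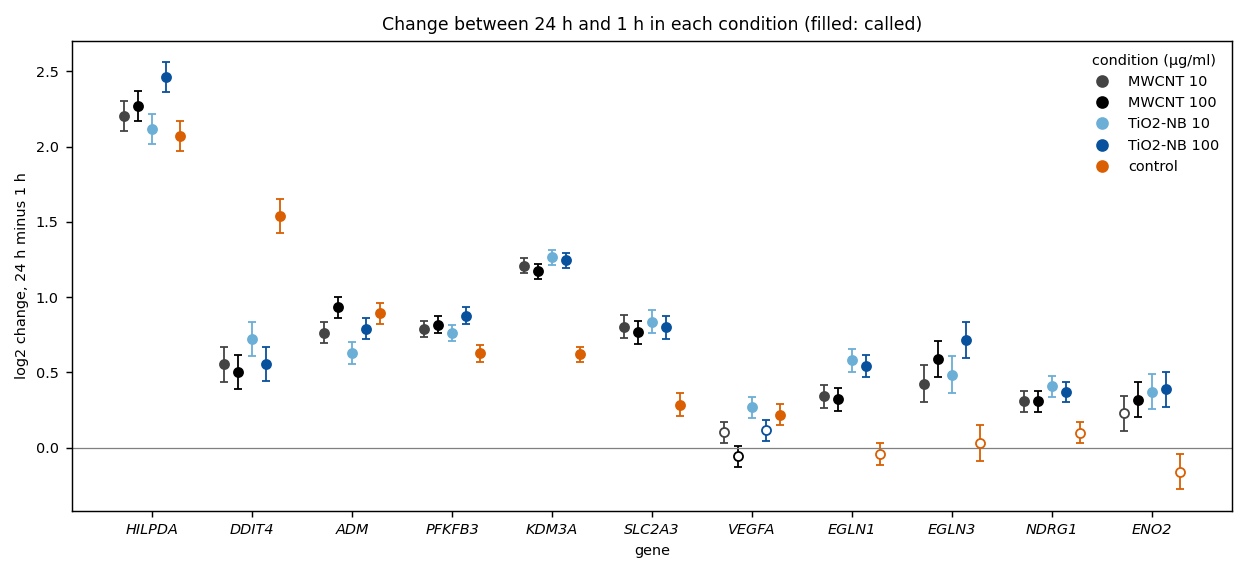
Log2 change at 24 h minus 1 h (y axis) of the 11 genes called in the 1 h average or in the control over time, for the 4 exposed conditions and then the control, with the standard error as whiskers and filled points where the change was called. DDIT4 lies lower in the exposed cultures (0.50 to 0.72) than in the control (1.54), KDM3A lies higher (1.17 to 1.26 against 0.62), and HILPDA is above 2 in every condition.

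Whether the exposure's effect differed between the times was tested as an interaction, the effect at 24 h minus that at 1 h, which is the same as the time change in the exposed cultures minus that in the control. With MWCNT at 10 µg/ml 3 of 56 member probe sets were called, where 1.79% of all were, and at 100 µg/ml 3, where 2.71% were. With TiO2-NB at 10 µg/ml 5 were called, where 3.83% of all were, and at 100 µg/ml 7, where 5.84% were. The interaction of DDIT4 was -0.98, -1.03, -0.82 and -0.98 in MWCNT at 10 and 100 µg/ml and TiO2-NB at 10 and 100 µg/ml, that of KDM3A was 0.59, 0.55, 0.64 and 0.63, and that of SLC2A3 was 0.52, 0.48, 0.55 and 0.51, each of these called. EGLN1 was called with TiO2-NB at 10 and 100 µg/ml (0.62 and 0.58), while its 0.38 and 0.36 with MWCNT did not pass. EGLN3 was called with TiO2-NB at 100 µg/ml only (0.68). NDRG1, at 0.21, 0.21, 0.31 and 0.27 in the order of groups above, did not pass in any (adjusted p between 0.080 and 0.36). The 4 interactions share the 6 control arrays.

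The neighbouring lists over time were also read in the control, 24 h against 1 h, where 18.1% of all probe sets were called. Of 32 other HIF targets 10 rose, 3 fell and 19 did not pass, with a median of 0.086 against 0.0056 over all genes. BHLHE40 rose by 1.64 ± 0.11, CITED2 by 1.25 ± 0.086, NFIL3 by 1.17 ± 0.061 and STC2 by 0.89 ± 0.10. Of 14 genes of the HIF machinery 3 rose and 3 fell, among them SIAH2, a ubiquitin ligase that degrades prolyl hydroxylases (0.50 ± 0.061, up), and SIAH1, its relative (-0.15 ± 0.041). Genes of the HIF machinery thus moved both ways. Of 17 other glycolysis genes 2 rose and 3 fell, with TIGAR lower by 0.96 ± 0.068 and BPGM, a mutase best known from red cells, lower by 0.33 ± 0.080. Of 13 gluconeogenesis genes 0 rose and 1 fell, PCK1, by 1.48 ± 0.13. Of 11 pyruvate dehydrogenase genes 1 fell, the phosphatase PDP1 (-0.55 ± 0.088), and of 7 mTORC1 genes 2 rose, SESN1 (0.55 ± 0.056) and TSC1 (0.25 ± 0.055), and 1 fell, MLST8 (-0.14 ± 0.043). Between 24 h and 1 h in the control 18S differed by 0.052 (exact permutation p = 0.7) and 28S by -0.067 (exact permutation p = 0.3). The 3 GAPDH controls differed by 0.037 to 0.061 and the ACTB control of the 3-prime end by -0.044. Each of these had an exact permutation p of 0.1, the smallest that 3 arrays against 3 allow. The ACTB control of the 5-prime end differed by -0.059 (exact permutation p = 0.4).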

How the data were processed

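Expression was measured on 30 arrays of a co-culture of human cell lines. The submitters deposited log2 levels per probe set made with RMA, as their processing notes state (per the submitters' processing notes). RMA subtracts background, gives all arrays one distribution and merges probes, so differences in total RNA are removed. The sources used here give neither its version nor its chip definition. Arrays have no read depth, and 3 per group limit the precision.

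Of 22277 probe sets, 62 controls stayed outside the tests, leaving 22215. Symbols came from the platform annotation, and all 34 member genes carry the same symbol in RefSeq. Group means were fitted over all 30 arrays in limma 3.58.1 with R 4.3.3 (20 residual degrees of freedom and 3.68 from eBayes), with two-sided p-values adjusted by Benjamini-Hochberg per comparison and a threshold of 0.05. Signs of RNA quality were compared by exact permutation tests. The code was tested on simulated data.

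The members and lists were chosen with earlier results of these data known. Every member is accounted for, with values per array for those called in the 1 h average or in the control over time, and of each list up to 4 genes with the smallest p in each of these comparisons are named. Promoters are shown for up to 4 genes called in every exposed 1 h group that the promoter table holds, plus LDHA. Alternatives were the compared groups alone, a block for the replicate number, leaving out the dimmest probe sets, an intensity trend with robust variances, each array left out, and 18S as a covariate.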

Additional observations from a re-analysis of the deposited data

Results flagged for a closer look

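For 18 readings the effect of exposure differed between 24 h and 1 h by an interaction called in limma, given here as the effect at 24 h minus that at 1 h on the log2 scale. DDIT4 gave -0.98 and -1.03 with MWCNT at 10 and 100 µg/ml and -0.82 and -0.98 with TiO2-NB. KDM3A gave 0.59 and 0.55 with MWCNT and 0.64 and 0.63 with TiO2-NB. SLC2A3 gave 0.52 and 0.48 with MWCNT and 0.55 and 0.51 with TiO2-NB in the probe set that stands for it, and 0.57 in another with TiO2-NB at 10 µg/ml. EGLN1 gave 0.62 and 0.58 with TiO2-NB at 10 and 100 µg/ml. With TiO2-NB at 100 µg/ml, EGLN3 gave 0.68, ENO2 gave 0.55 and the second probe set of BNIP3L gave -0.44.

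The calls of DDIT4, KDM3A and EGLN1 held under the 5 alternatives run and with each array of the compared groups left out. With the compared groups alone, SLC2A3 with MWCNT at 100 µg/ml (adjusted p = 0.063) and with TiO2-NB at 10 µg/ml (adjusted p = 0.054), its other probe set (adjusted p = 0.15), EGLN3 (adjusted p = 0.087), BNIP3L (adjusted p = 0.051) and ENO2 (adjusted p = 0.096) did not pass. With 1 array left out, the calls ended for ENO2 and for BNIP3L in 8 of 12 cases each, for the other probe set of SLC2A3 in 9 of 12, for EGLN3 in 2 of 12 (control replicate 2 of 1 h and TiO2-NB replicate 3 of 24 h) and for SLC2A3 with MWCNT at 100 µg/ml in 2 of 12 (control replicate 2 and MWCNT replicate 1, both of 24 h).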

How the results depend on the processing

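No result for a member or a count turned its direction under any alternative. With the spread taken from the compared groups alone, the called member probe sets at 1 h came to 2 with MWCNT at 10 µg/ml, 2 with MWCNT at 100 µg/ml, 3 with TiO2-NB at 10 µg/ml and 2 with TiO2-NB at 100 µg/ml, against 6, 6, 10 and 8. On the same terms MWCNT at 100 µg/ml at 24 h against 1 h gave 13 against 20, 100 against 10 µg/ml gave 0 against 2, and MWCNT against TiO2-NB gave 0 against 5. With 18S as a covariate, chosen after seeing the data, MWCNT at 100 µg/ml gave 3 at 1 h and the 24 h average gave 1 against 0. With 1 array left out, the 1 h counts ran from 4 to 7 (MWCNT, 10 µg/ml), 3 to 7 (MWCNT, 100 µg/ml), 4 to 11 (TiO2-NB, 10 µg/ml), 4 to 7 (TiO2-NB, 100 µg/ml) and 4 to 13 (average). The lowest came without control replicate 2 for all but MWCNT at 10 µg/ml, and TiO2-NB at 10 µg/ml also gave 6 without control replicate 3 and 5 without its own replicate 3, and TiO2-NB at 100 µg/ml 5 without its replicate 2 or 3. At 24 h TiO2-NB at 100 µg/ml ran from 2 (without its replicate 3) to 6 and the average from 0 to 1. Over time the ranges were 5 to 9 in the control, 9 to 17, 15 to 25, 17 to 20 and 17 to 22 in MWCNT at 10 and 100 µg/ml and TiO2-NB at 10 and 100 µg/ml. They were 15 to 21 for the interactions, 0 to 4 for dose and 4 to 5 for particle. The cause of these moves was not tested.

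Of 51 single changes named for members, 24 lost their call with the compared groups alone, 12 with the 18S covariate, 2 with an intensity trend, 0 with the dimmest probe sets left out and 25 with some array left out. No pairing of arrays by replicate number was seen on average. Deviations of same-numbered arrays correlated at 0.0026 on average over 135 pairs, with a range of -0.28 to 0.21. For different numbers the average was -0.0013 over 270 pairs. Pairing among some of the groups only was not tested. With the replicate number as a block, the 1 h counts were 6, 6, 9 and 6, and 3 calls ended, EGLN3 (adjusted p = 0.0536) and NDRG1 (adjusted p = 0.0541) with TiO2-NB at 100 µg/ml and BNIP3L with TiO2-NB at 10 µg/ml (adjusted p = 0.0552).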
